A study of Mus musculus with 24 samples.

Results

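Chemokines and their receptors were examined in the liver of male mice, either homozygous for the Abcb4 knockout allele (strain FVB.129P2-Abcb4tm1Bor/J) or wild type for Abcb4 (FVB/NJ). The set was formed by gene symbol: every gene whose annotated name was Ccl, Cxcl, Cx3cl, Xcl, Ccr, Cxcr, Cx3cr or Xcr followed by a number was taken, which gave 52 of the 16504 named genes on the array. Of these, 34 were ligands (20 Ccl, 12 Cxcl, 1 Cx3cl and 1 Xcl) and 18 were receptors (10 Ccr, 6 Cxcr, 1 Cx3cr and 1 Xcr). The mice were killed at 3, 6, 9 and 20 weeks, which one label counts from weaning, and both genotypes were hybridised together, labelled with Cy5 and Cy3, on each of 24 arrays. At each time there were 6 arrays, 3 in each dye orientation, for 5 mice stated per genotype. Since 1 dye swap is stated and the repeated animals are not identified, the p-values rest on more arrays than animals and measure in part a technical spread. The knockout is present in every cell of the animal, and no treatment is given in the labels. Each value is a log2 ratio, knockout over wild type, where base 2 is assumed, and values are given as mean ± SD of the 6 arrays. Ratios carry no level for either genotype, so the tissue could not be checked against marker levels. In liver RNA, more cells of a type and more RNA per cell cannot be told apart.

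Chemokines are small secreted or membrane-tethered proteins that guide white blood cells along gradients, and they signal through receptors with a seven-pass membrane fold that couple to inhibitory G proteins. In the liver they are made by hepatocytes, bile duct cells, endothelium, stellate cells and resident macrophages (Kupffer cells), and they draw monocytes, neutrophils and lymphocytes into the tissue. Abcb4 moves phosphatidylcholine into bile, and mice without it develop bile duct injury, inflammation around the portal tracts and scarring.

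Each array was turned to knockout over wild type by its dye label. The sign common to all arrays was set by the targeted gene, which was assumed to be lower in the knockout. With that sign Abcb4 averaged -0.87 ± 0.24, -1.57 ± 0.37, -1.42 ± 0.66 and -1.34 ± 0.34 at 3, 6, 9 and 20 weeks and was below 0 on 24 of 24 arrays. Whether its probe lies in the deleted part is not known. This is the basis of the direction and not a result, and with the opposite reading every higher value below would be lower. A few arrays stood apart from the rest of their week. In replicates 1 and 2 of 3 weeks the median of 16 cholesterol synthesis and uptake genes was -2.09 and -1.87, against -0.32 to 0.28 on the other 3-week arrays. Exocrine pancreas genes had a median of -3.90 in replicate 6 of 3 weeks, and replicate 2 of 9 weeks had the lowest array quality weight of all arrays, at 0.306. For several genes a call ended without one of these arrays, or without replicates 1 and 2 of 3 weeks together.

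Most calls in the family were higher in the knockout and were made from 6 weeks on. A member was called where the adjusted p of the limma fit was under 0.05 over all 20861 genes and unnamed features. At 3 weeks 3 members were higher in the knockout and 0 lower, where 3.64% of all features tested were higher and 3.75% lower. Without replicates 1 and 2 of 3 weeks, 0 members remained called at that time. At 6 weeks 15 were higher and 2 lower (background 10.8% and 10.1%), at 9 weeks 15 were higher and 4 lower (10.4% and 10.9%), and at 20 weeks 14 were higher and 1 lower (8.09% and 5.37%). The lower count of 20 weeks was 0 without replicate 2, 5 or 6 of that time and 2 without replicate 1 or 5 of 9 weeks, that of 6 weeks was 1 without replicate 1 or 6 of that time, and that of 9 weeks was 2 without replicate 3 of that time. Expressed as shares of the 52 members, 28.8%, 28.8% and 26.9% were higher at 6, 9 and 20 weeks, and 3.85%, 7.69% and 1.92% were lower. The size of the typical effect was small: the median over members was 0.02, 0.06, 0.07 and 0.07 at the 4 times, beside a median of about 0.00 over all features. In either direction, 3, 14, 13 and 11 of the 34 ligands and 0, 3, 6 and 4 of the 18 receptors were called at the 4 times (background 7.39%, 20.9%, 21.3% and 13.5%). Of the ligands 3, 12, 12 and 11 were higher and 0, 2, 1 and 0 lower, and of the receptors 0, 3, 3 and 3 were higher and 0, 0, 3 and 1 lower. The median over ligands was 0.04, 0.12, 0.09 and 0.08 and that over receptors -0.03, 0.03, -0.00 and 0.00, with 8, 10, 9 and 9 of the 18 receptors above 0. Averaged over the 4 times, 22 members were higher and 6 lower (background 18.7% and 19.7%). No member was higher at one time and lower at another, which 0.336% of all features were.

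**Figure D1:**
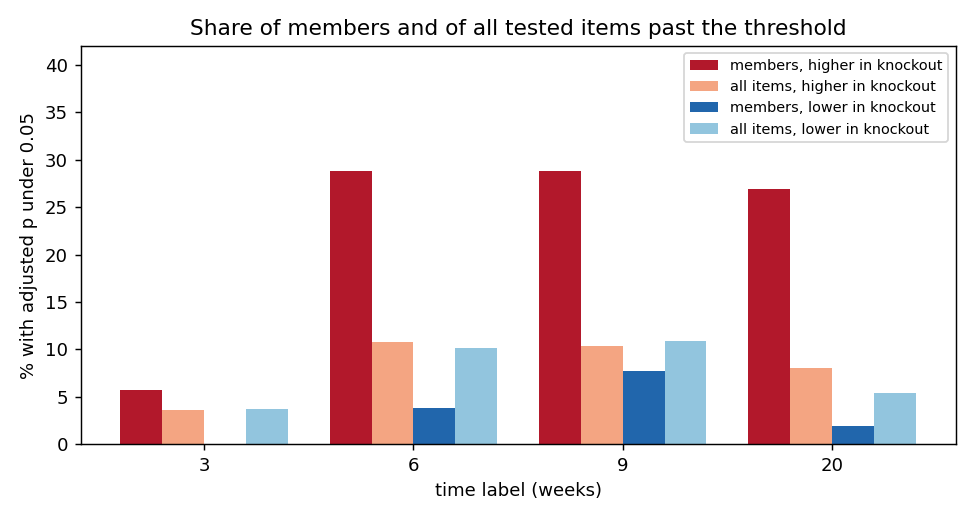
Percentage of the 52 chemokine and receptor genes (members, dark bars) and of all 20861 genes and unnamed features tested (all items, pale bars) with an adjusted p under 0.05 at each time, higher (red) or lower (blue) in the knockout. From 6 weeks on, 26.9% to 28.8% of the members were higher, against 8.09% to 10.8% of all items, and the members' share lower lay under that of all items at each time.

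Ccl2, Cxcl10 and Cxcl16 were higher in the knockout at all 4 times, which 1.47% of all features were. Ccl2 is the main attractant of inflammatory monocytes, Cxcl10 is an interferon-inducible attractant of activated T cells, and Cxcl16 is a membrane-bound chemokine that also binds oxidised lipoprotein. Ccl2 was above 0 on 24 of 24 arrays. Its array values ran from 0.51 through a median of 0.86 to 1.12 at 3 weeks, from 0.50 through 0.95 to 1.21 at 6 weeks, from 0.81 through 1.19 to 2.51 at 9 weeks and from 0.15 through 1.01 to 1.24 at 20 weeks. The lowest of these was replicate 3 of 20 weeks and the highest replicate 1 of 9 weeks, and no array overlapped 0. The means were 0.85 ± 0.28 (adjusted p = 0.00139), 0.88 ± 0.25 (0.000504), 1.36 ± 0.63 (3.55e-06) and 0.87 ± 0.42 (0.000932).

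Cxcl10 had a wider spread over the arrays than Ccl2 at 3, 6 and 20 weeks. Its values spanned 0.45 to 2.09 at 3 weeks (median 1.09), -0.14 to 2.05 at 6 weeks (0.88), 0.35 to 0.98 at 9 weeks (0.82) and 0.21 to 1.57 at 20 weeks (1.26). Only replicate 2 of 6 weeks lay below 0. The means were 1.12 ± 0.66 (adjusted p = 0.00369), 0.97 ± 0.90 (0.00568), 0.73 ± 0.25 (0.0305) and 0.98 ± 0.61 (0.00775). Leaving out any 1 of the 6 arrays of 9 weeks ended the call of that time, with adjusted p between 0.0509 and 0.0847. The fitted mean nevertheless stayed between 0.67 and 0.77. Where arrays were left out, the mean given is that of the limma fit with its dye term, not the plain array mean. For Cxcl16 the arrays gave 0.00 to 0.68 at 3 weeks (median 0.55), 0.13 to 0.76 at 6 weeks (0.60), 0.47 to 1.20 at 9 weeks (0.65) and 0.14 to 0.72 at 20 weeks (0.62). Its means were 0.43 ± 0.28 (adjusted p = 0.00227), 0.55 ± 0.22 (0.000104), 0.74 ± 0.28 (2.46e-06) and 0.50 ± 0.26 (0.000485). Cxcl16 showed a dye effect (adjusted p = 0.0464) and was higher in both orientations at each time, for example 0.34 with knockout RNA in Cy5 and 0.66 with it in Cy3 at 20 weeks. The 3-week calls of Ccl2, Cxcl10 and Cxcl16 ended without replicates 1 and 2 together, with fitted means of 0.66, 0.99 and 0.38 (adjusted p = 0.0615, 0.0623 and 0.0538). Both of these arrays had knockout RNA in Cy3, so fewer arrays in an uneven dye balance were left. Without replicate 6 of 3 weeks the fitted means were 0.82, 0.96 and 0.38 (adjusted p = 0.00743, 0.0264 and 0.0164). The 3-week and 6-week calls of Cxcl10 also ended when each of these weeks was fitted alone (adjusted p = 0.0716 and 0.0687).

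The promoters of 3 of the upregulated ligands are printed because they hold matches to motifs of transcription factors known to induce chemokines. They run from 250 bases before to 50 after the gene start (RefSeq, GRCm38.p6), on the gene's strand, and capitals mark the matches. Cxcl10 (chr5:92348840-92349139, minus strand) has matches to the NF-kappaB consensus, a pair of them overlapping, and to the core of the interferon-stimulated response element (ISRE), which is GAAA, any 2 bases and GAAA. Ccl20 (chr1:83116516-83116815, plus strand) has an NF-kappaB match, and Cxcl14 (chr13:56296502-56296801, minus strand) has an ISRE core and a match to the interferon gamma-activated sequence (GAS), which is TTC, any 3 bases and GAA.
Cxcl10: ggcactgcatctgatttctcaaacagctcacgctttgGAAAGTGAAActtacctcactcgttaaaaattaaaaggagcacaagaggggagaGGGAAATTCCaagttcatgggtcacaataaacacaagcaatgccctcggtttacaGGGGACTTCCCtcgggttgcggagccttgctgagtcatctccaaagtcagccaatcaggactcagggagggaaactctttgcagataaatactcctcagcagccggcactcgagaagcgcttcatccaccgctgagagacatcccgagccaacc
Ccl20: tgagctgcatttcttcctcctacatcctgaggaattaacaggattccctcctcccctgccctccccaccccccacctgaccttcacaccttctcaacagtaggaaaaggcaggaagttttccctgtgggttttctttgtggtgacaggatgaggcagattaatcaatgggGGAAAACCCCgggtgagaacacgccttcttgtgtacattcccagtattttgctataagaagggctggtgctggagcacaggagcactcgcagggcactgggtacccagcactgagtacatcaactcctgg
Cxcl14: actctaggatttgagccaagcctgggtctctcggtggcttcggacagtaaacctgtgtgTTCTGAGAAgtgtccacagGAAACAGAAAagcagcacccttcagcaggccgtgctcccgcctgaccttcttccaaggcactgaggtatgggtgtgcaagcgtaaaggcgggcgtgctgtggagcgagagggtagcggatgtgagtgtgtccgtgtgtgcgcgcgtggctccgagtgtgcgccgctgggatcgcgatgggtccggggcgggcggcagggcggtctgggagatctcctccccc
Both strands were searched. Members were counted by gene, with a match in any of its promoters, and the background by promoter. The shares below are thus not in like units. A promoter was matched for 38 of the 52 members, and not for Ccl2, Ccl4, Ccl5, Ccl7, Ccl11, Ccl21c, Ccl24, Ccr7, Ccr10, Cxcl5, Cxcl11, Cxcl16, Cxcl17 and Cxcr5. The NF-kappaB consensus was found in 10 of the 38 (26.3%) and in 8.46% of all 32851 promoters, the ISRE core in 3 (7.89%, against 3.44%) and the GAS motif in 4 (10.5%, against 8.3%). The NF-kappaB matches were in Ccl1, Ccl9, Ccl20, Ccl27a, Ccr1, Ccr3, Ccr6, Cxcl1, Cxcl2 and Cxcl10, of which Ccl1, Ccl27a, Ccr3 and Ccr6 passed no test of the knockout effect. ISRE cores were in Ccl19, Cxcl10 and Cxcl14, and GAS matches in Ccl17, Ccr1l1, Ccr6 and Cxcl14. A match describes letters in this window and not a bound site.

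Among the other CC ligands, Ccl20 and Ccl6 had the largest means. Ccl20 attracts cells carrying Ccr6, among them IL-17-producing T cells and some dendritic cells. Its values lay on either side of 0 at 3 weeks, from -0.17 through a median of 0.02 to 0.18. At 6 weeks they ran from 0.41 through 0.68 to 1.07, at 9 weeks from 0.59 through 1.13 to 3.43 and at 20 weeks from 0.25 through 1.07 to 1.23. All 18 arrays of the later times lay above each 3-week array. The means were 0.02 ± 0.12, 0.72 ± 0.23 (adjusted p = 0.0248), 1.47 ± 1.03 (4.57e-05) and 0.89 ± 0.38 (0.00935). The value of 3.43 came from replicate 2 of 9 weeks, without which the fitted 9-week mean was 1.06 and the call held. The 6-week call ended without replicate 3, 4 or 5 of that time (adjusted p = 0.0858, 0.0597 and 0.0699).

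Ccl6, a rodent chemokine made by macrophages and other myeloid cells, was higher from 6 weeks on. Its values were -0.22 to 0.52 at 3 weeks (median 0.11), 0.61 to 1.38 at 6 weeks (0.87), 0.46 to 1.12 at 9 weeks (0.78) and -0.05 to 1.02 at 20 weeks (0.44). The 6-week arrays all lay above the 3-week arrays, whereas the 20-week arrays overlapped them. Its means were 0.13 ± 0.26, 0.91 ± 0.29 (adjusted p = 7.76e-06), 0.76 ± 0.24 (4.5e-05) and 0.49 ± 0.37 (0.00639). Ccl9, a relative of Ccl6 that also acts on Ccr1, was called at 9 weeks alone, with a mean of 0.55 ± 0.43 (adjusted p = 0.00967) and arrays from 0.08 through 0.47 to 1.25. Without replicate 2 of 9 weeks, its highest array, the fitted mean was 0.38 and the call was lost (adjusted p = 0.0642).

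Ccl17, which attracts Ccr4-bearing T helper 2 and regulatory T cells, was higher at 6 and 9 weeks. The 6-week arrays ran from 0.31 through 0.78 to 1.19 and the 9-week arrays from 0.06 through 0.75 to 1.68, with means of 0.79 ± 0.37 (adjusted p = 0.00857) and 0.77 ± 0.65 (0.00887). The 9-week call ended without replicate 3 or 5 of that time (adjusted p = 0.0542 and 0.0541). At 3 weeks the mean was 0.27 ± 0.48, and at 20 weeks it was 0.08 ± 0.68 with arrays from -0.998 through 0.44 to 0.67. At 20 weeks the mean was -0.38 where knockout RNA was in Cy5 and 0.54 where it was in Cy3, but the arrays did not split by dye. With knockout RNA in Cy5, replicates 1 and 2 were at -0.55 and -0.998 and replicate 6 at 0.41, close to the Cy3 arrays. The dye effect of Ccl17 did not pass (adjusted p = 0.291).

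Ccl21c belongs to a group of nearly identical genes whose product guides dendritic cells and naive T cells through Ccr7, and its probe may bind transcripts of its close copies. It was not called at 3 or 6 weeks, with means of 0.00 ± 0.11 and 0.19 ± 0.19, and was higher at 9 and 20 weeks, at 0.52 ± 0.22 (adjusted p = 7.73e-05) and 0.54 ± 0.27 (0.000125). The 9-week arrays ran from 0.16 through 0.58 to 0.78 and the 20-week arrays from 0.09 through 0.68 to 0.72, so that all 9-week arrays lay above the highest 3-week array of 0.15 and 1 of the 20-week arrays did not. Ccl7, a second Ccr2 ligand, was higher by smaller amounts at 6, 9 and 20 weeks, at 0.27 ± 0.14 (adjusted p = 0.000179), 0.22 ± 0.09 (0.00116) and 0.16 ± 0.10 (0.0175), and its mean at 3 weeks was -0.04 ± 0.09. The 20-week call of Ccl7 ended without replicate 2, 5 or 6 of that time (adjusted p = 0.0922, 0.058 and 0.0561).

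Ccl5 was higher in the knockout at 20 weeks, at 0.46 ± 0.26 (adjusted p = 0.000784) with arrays from 0.20 to 0.80. It is released by T cells and other leukocytes. Its 9-week value of 0.24 ± 0.24 sat at the threshold (adjusted p = 0.0468), and 21 of the 34 alternatives tried ended that call, 14 of which left out a single array. Of its own time these were replicates 1, 2, 4 and 5 (adjusted p = 0.068, 0.227, 0.0788 and 0.129). Ccl4, a macrophage product, was higher at 6 weeks, at 0.21 ± 0.19 (adjusted p = 0.0144), a call lost without replicate 5 of that time (0.0934). Its neighbour and relative Ccl3 passed only in the mean over the 4 times, at 0.07 with SE 0.03 (adjusted p = 0.0471), and 24 of 33 alternatives ended that call, 18 of which left out a single array, with adjusted p of 0.0866 without replicate 6 of 9 weeks.

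In the CXC group, Cxcl14, an epithelial chemokine whose main receptor is still debated, was higher at 6, 9 and 20 weeks. Its 3-week arrays ran from -0.31 through 0.11 to 0.20. At 6 weeks they ran from -0.10 through 0.75 to 1.49, at 9 weeks from 0.51 through 0.60 to 1.76 and at 20 weeks from 0.23 through 0.58 to 0.86. The 9-week and 20-week arrays all lay above the 3-week arrays, and 1 array of 6 weeks fell among them. Means were 0.03 ± 0.20, 0.71 ± 0.59 (adjusted p = 0.00195), 0.85 ± 0.50 (0.000301) and 0.53 ± 0.24 (0.024), and the 20-week call ended without replicate 5 or 6 of that time (0.0741 and 0.0861).

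Cxcl9, an interferon gamma-inducible ligand of Cxcr3 like Cxcl10, was higher at 6 weeks (0.49 ± 0.50, adjusted p = 0.0142) and at 20 weeks (0.47 ± 0.44, 0.024). These calls each rested on a few arrays. The 6-week call ended without replicate 4 or 5 of that time (adjusted p = 0.0928 and 0.0823) and the 20-week call without replicate 1, 2 or 3 of that time (0.124, 0.12 and 0.0617). At 3 and 9 weeks Cxcl9 averaged 0.06 ± 0.16 and 0.15 ± 0.21. The third Cxcr3 ligand, Cxcl11, passed no test, with weekly means between -0.11 and 0.01.

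The neutrophil-attracting CXC ligands that act on Cxcr2 did not share a direction. Cxcl5 was lower in the knockout at 9 weeks, at -0.66 ± 0.51 (adjusted p = 0.00123), with arrays from -1.48 through -0.61 to -0.12 and none above 0. At 3, 6 and 20 weeks its means were -0.02 ± 0.08, -0.38 ± 0.30 and -0.36 ± 0.37 (adjusted p = 0.978, 0.0529 and 0.0923). Cxcl1 scattered widely, from -1.35 to 1.18 at 3 weeks and from -0.79 to 2.62 at 20 weeks, and passed only in the mean over the 4 times, at 0.48 with SE 0.17 (adjusted p = 0.0256). That call ended when the most alike pair of opposite dye orientation in each week was averaged (0.0706). Cxcl2 was higher at 6 weeks, at 0.17 ± 0.16 (adjusted p = 0.0387). That call was lost without replicate 1, 4, 5 or 6 of that time (0.0773, 0.187, 0.124 and 0.0879). It was also lost without centring (0.0533), after quantile normalization (0.0586) and after scaling to a common spread (0.0539). Averaging the most alike pair (0.144) and fitting the week alone (0.112) ended it too.

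A pair of homeostatic CXC ligands were lower at 6 weeks. Cxcl12, which holds Cxcr4-bearing cells in bone marrow and other tissues, was at -0.36 ± 0.39 (adjusted p = 0.022), with arrays from -0.77 through -0.40 to 0.27, and the call ended without replicate 1, 2 or 6 of that time (0.0759, 0.0743 and 0.0754). It had a dye effect (adjusted p = 0.0486): with knockout RNA in Cy5 the 6-week mean was -0.09, with it in Cy3 -0.63, and without the dye term the call was lost (0.0528). Cxcl13, which draws B cells through Cxcr5, was at -0.24 ± 0.13 (adjusted p = 0.000186) and below 0 on each of the 6 arrays. Neither passed at 3, 9 or 20 weeks, where Cxcl12 averaged -0.16 ± 0.38, -0.27 ± 0.29 and -0.17 ± 0.25 and Cxcl13 averaged -0.05 ± 0.11, -0.06 ± 0.07 and -0.10 ± 0.05.

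Cx3cl1 (fractalkine), a membrane-tethered ligand that binds patrolling monocytes and tissue macrophages through Cx3cr1, was the only member with 2 features. Their average was higher at 6, 9 and 20 weeks, at 0.19 ± 0.11 (adjusted p = 0.00498), 0.23 ± 0.11 (0.000615) and 0.19 ± 0.18 (0.00598). The features differed: the one with the RefSeq accession reached 0.29 ± 0.21, 0.44 ± 0.24 and 0.47 ± 0.26 (adjusted p = 0.00593, 0.000116 and 0.000123), whereas the other gave 0.08 ± 0.12, 0.03 ± 0.17 and -0.09 ± 0.18 and passed at no time.

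**Figure D2:**
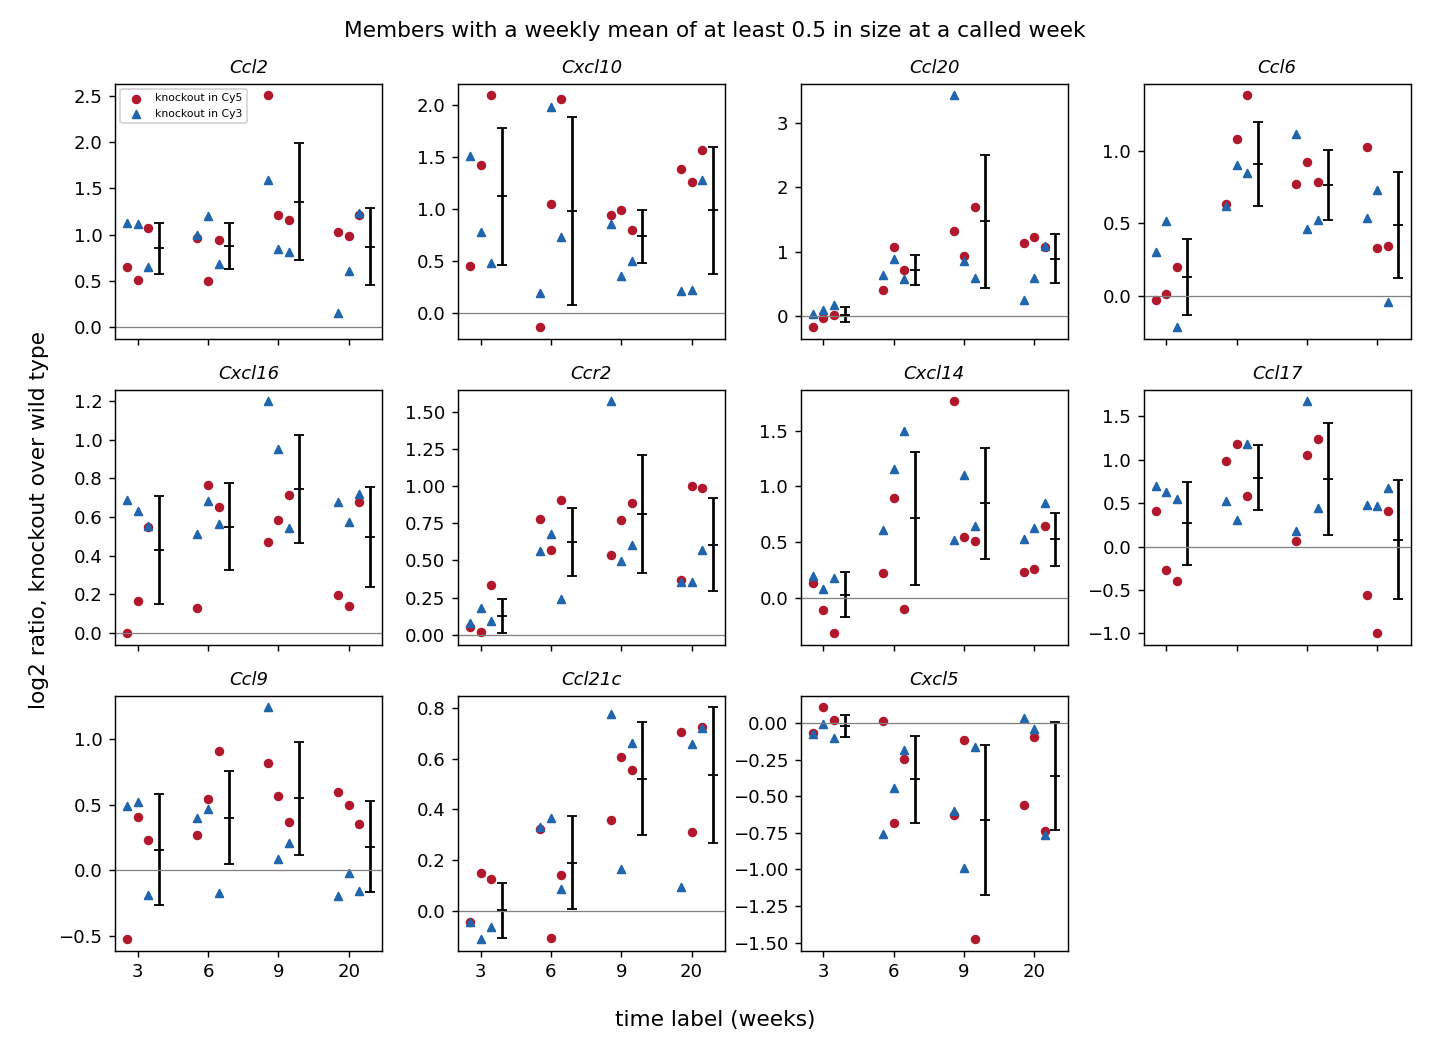
Log2 ratio of knockout over wild type on each array for the 11 members whose weekly mean was at least 0.5 in size at a time when they were called, by time in weeks (circles, knockout RNA in Cy5, triangles, knockout RNA in Cy3, bars, mean ± SD of 6 arrays). Ccl2 lay above 0 on all arrays, Ccl20 lay near 0 at 3 weeks and reached 3.43 at 9 weeks, and Cxcl5 lay below 0 on all 6 arrays of 9 weeks.

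Ccr2, the receptor for Ccl2 and Ccl7 that marks inflammatory monocytes, had the largest weekly mean of the 18 receptors and was above 0 on 24 of 24 arrays. Its arrays ran from 0.02 through 0.08 to 0.33 at 3 weeks, from 0.24 through 0.62 to 0.90 at 6 weeks, from 0.50 through 0.69 to 1.57 at 9 weeks and from 0.35 through 0.47 to 1.00 at 20 weeks. The 9-week and 20-week arrays all lay above the 3-week arrays, and 1 array of 6 weeks fell within their range. The means were 0.13 ± 0.11 (adjusted p = 0.668), 0.62 ± 0.23 (0.000312), 0.81 ± 0.40 (1.3e-05) and 0.61 ± 0.31 (0.000673). Without replicate 2 of 9 weeks, the highest array, the fitted 9-week mean was 0.64 (adjusted p = 1.9e-05).

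Further receptors were called by small amounts. Cxcr4, the Cxcl12 receptor of many leukocytes, was higher at 6 and 9 weeks, at 0.24 ± 0.10 (adjusted p = 0.00152) and 0.22 ± 0.08 (0.00233). Ccr1, a receptor of monocytes and neutrophils, was higher at 6 weeks, at 0.17 ± 0.13 (adjusted p = 0.00703), a call that ended without replicate 3 of that time (0.0501). The calls of Ccr1 at 9 and 20 weeks, at 0.12 ± 0.13 (0.0494) and 0.13 ± 0.10 (0.046), were ended by 31 and 23 of the 34 alternatives tried, including the removal of each single array of its own time (adjusted p up to 0.199 without replicate 2 of 9 weeks and 0.155 without replicate 6 of 20 weeks). Ccr10, which binds the epithelial chemokines Ccl27 and Ccl28, was called at 20 weeks, at 0.25 ± 0.28 (adjusted p = 0.0102). It had a dye effect (adjusted p = 0.00202): with knockout RNA in Cy5 the 20-week mean was 0.01, with it in Cy3 0.49, and without the dye term the call was lost (0.0944). Cxcr6, the Cxcl16 receptor of natural killer T cells, passed only in the mean over the 4 times, at 0.08 with SE 0.02 (adjusted p = 0.0115).

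The receptors that were lower were Xcr1 and Ccr7, both carried by dendritic cells, and Cxcr2, carried by neutrophils. Other dendritic cell markers were more often called higher than lower, and neutrophil markers were called in both directions, as given below. Xcr1, a marker of the dendritic cells that cross-present antigen, was at -0.43 ± 0.10 at 9 weeks (adjusted p = 0.000245), with arrays from -0.56 through -0.41 to -0.29, and at -0.29 ± 0.21 at 20 weeks (0.0124). The 20-week call ended without replicate 2, 5 or 6 of that time (adjusted p = 0.0555, 0.0594 and 0.0529). Cxcr2, the neutrophil receptor for Cxcl1, Cxcl2 and Cxcl5, was at -0.42 ± 0.26 at 9 weeks (adjusted p = 0.0219), with no array above 0 and the call lost without replicate 2, 3 or 5 of that time (0.0563, 0.114 and 0.0722). Ccr7, which leads dendritic cells and naive T cells to lymphoid tissue, was at -0.21 ± 0.23 at 9 weeks (adjusted p = 0.0179), a call lost without replicate 2, 3 or 6 of that time (0.0681, 0.0911 and 0.0669).

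**Figure D3:**
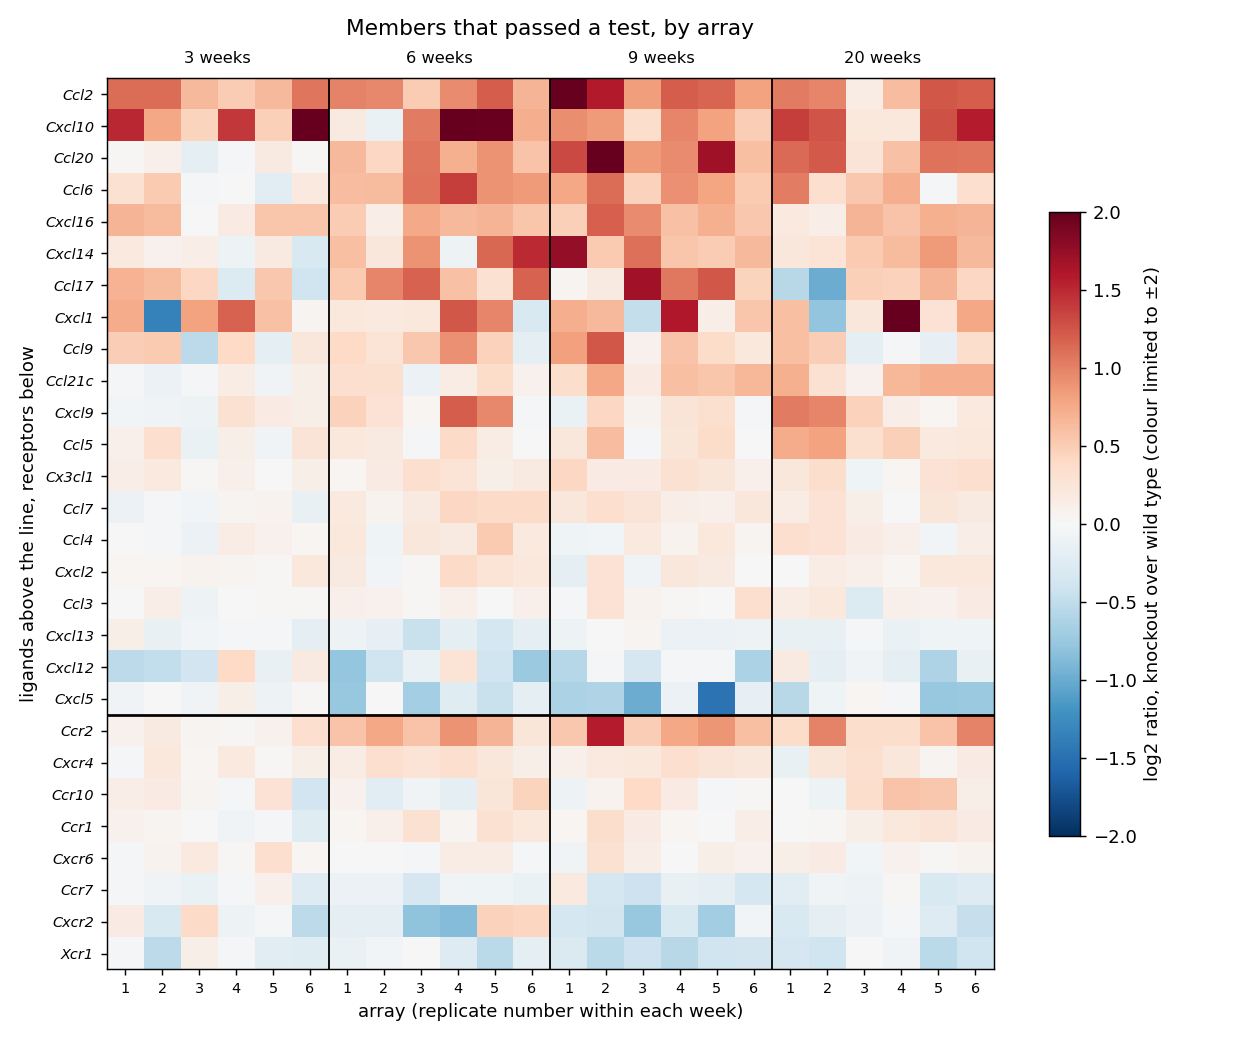
Log2 ratio of knockout over wild type (colour, limited to ±2) on each of the 24 arrays for the 28 members that passed at least 1 test, with ligands above the line and receptors below it. Rows such as Ccl2 and Cxcl16 are red across the 4 times, Ccl20, Ccl6 and Ccr2 are pale at 3 weeks and red from 6 weeks on, and Xcr1 and Cxcl5 are mostly blue.

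Ligands and receptors were set side by side in 29 pairs measured on both sides, one for each of 29 ligands with 16 receptors. A receptor can enter several pairs, as Ccr2 and Ccr1 do with 3 ligands each, so one receptor call is counted more than once, and no background share was computed for pairs. Both partners were called in 0, 4, 6 and 3 pairs at 3, 6, 9 and 20 weeks, a ligand without its receptor in 3, 8, 5 and 6, and a receptor without the ligand in 0, 3, 7 and 6. Ccl2 with Ccr2, Ccl7 with Ccr2, and Ccl6 with Ccr1 were higher on both sides at 6, 9 and 20 weeks, although the Ccr1 calls of 9 and 20 weeks sat at the threshold. The other ligand paired with Ccr2, Ccl12, passed no test, with weekly means between 0.03 and 0.21. The highest of these, at 9 weeks, included 1.03 on replicate 2. Ccl9 with Ccr1 was higher on both sides at 9 weeks, and Cxcl5 with Cxcr2 was lower on both sides at that time. In other pairs the partners differed in direction: Cxcl12 was lower and Cxcr4 higher at 6 weeks, and Ccl21c was higher and Ccr7 lower at 9 weeks, a pair that was added after the values were seen and without which the 9-week count was 5. For Cxcl10 and Cxcl9, the receptor Cxcr3 averaged 0.01 to 0.08 over the times and passed no test. For Cxcl16, the weekly means of Cxcr6 lay between 0.04 and 0.11. For Ccl20, those of Ccr6 lay between -0.05 and 0.29, the last at 9 weeks with an adjusted p of 0.0937.

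**Figure D4:**
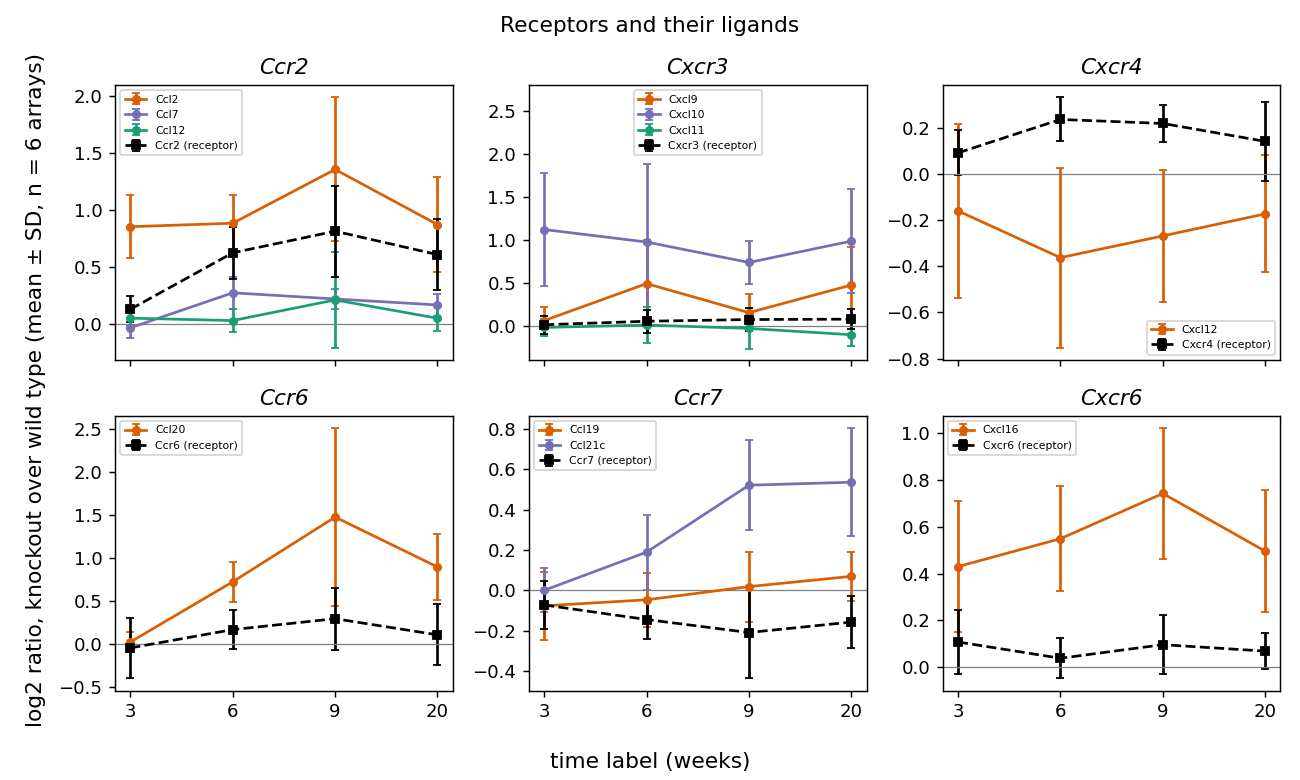
Weekly mean ± SD (n = 6 arrays) of the log2 ratio of knockout over wild type for 6 receptors (black squares, broken lines) and the ligands assigned to them (coloured circles). The means of Ccl2 and Ccr2 were above 0 at each time, with Ccr2 not called at 3 weeks. Cxcl10, Ccl20 and Cxcl16 stood above receptors whose means stayed at or under 0.29, and Cxcl12 lay below 0 while Cxcr4 lay above it.

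Whether the knockout effect itself differed between times was tested with the moderated F test, which 5 members passed (background 5.08%): Ccl6, Ccl7, Ccl20, Ccl21c and Ccr2, with adjusted p between 0.012 and 0.0383. Against 3 weeks, the log2 ratio was higher at 6 weeks for 2 members and lower for 0 (background 0.695% and 0.604%). Those 2 were Ccl6, by 0.78 with SE 0.16 (adjusted p = 0.0147), and Ccl7, by 0.31 with SE 0.06 (0.014). At 9 weeks it was higher for 6 and lower for 0 (1.61% and 2.06%), and at 20 weeks higher for 1 and lower for 0 (3.02% and 1.54%). The 9-week difference was 1.45 with SE 0.31 for Ccl20 (adjusted p = 0.00958), 0.82 with SE 0.22 for Cxcl14 (0.0371), 0.69 with SE 0.16 for Ccr2 (0.0128), 0.63 with SE 0.16 for Ccl6 (0.0311), 0.52 with SE 0.12 for Ccl21c (0.0121) and 0.25 with SE 0.06 for Ccl7 (0.0263). Ccl21c also differed at 20 weeks, by 0.54 with SE 0.12 (adjusted p = 0.00984). The members already called at 3 weeks were not among these, and the F test gave adjusted p of 0.385 for Ccl2, 0.874 for Cxcl10 and 0.353 for Cxcl16.

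These differences were sensitive to single arrays and to the repeated animals. When the most alike pair of opposite dye orientation in each week was averaged to 1 array, as a stand-in for the unidentified dye swap, the F test was passed by 0 members, and Ccl20, Ccl21c and Ccr2 kept their 9-week difference (adjusted p = 0.0472, 0.0338 and 0.0488). Without replicates 1 and 2 of 3 weeks together, and without replicate 1, 3, 5 or 6 of 3 weeks singly, the F test was passed by 2 members, and by 3 without replicate 4 of 3 weeks or replicate 5 of 9 weeks. The 9-week count was 3 without replicate 3 or 6 of 3 weeks. Without replicate 2 of 9 weeks, 4 members differed at 6 weeks and 4 at 20 weeks, and the 9-week difference of Ccl20 was 1.04 (adjusted p = 0.00234). Without replicate 4 or 6 of 9 weeks, 1 member had a lower ratio at 9 weeks than at 3 weeks. A lower ratio is a signed difference and need not be a weaker effect. The 20-week count was 2 without replicate 2 of 3 weeks or replicate 4 of 20 weeks. Ccl6 and Cxcl14 at 9 weeks lost the difference under 10 and 14 of the 33 alternatives, 7 and 9 of them single arrays left out, and Ccl7 at 9 weeks under 8. Without replicate 2 of 9 weeks the 9-week differences of Ccl6 and Ccl7 had an adjusted p of 0.0818 and 0.0644, and without replicate 6 of 3 weeks those of Ccl6, Ccl7 and Cxcl14 had 0.0532, 0.0648 and 0.0781. Without replicates 1 and 2 of 3 weeks together, the 9-week differences of Ccl7 and Cxcl14 had 0.0901 and 0.0799, and the 6-week difference of Ccl7 had 0.0549.

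The remaining 24 members passed no test, 14 ligands and 10 receptors, with weekly means from -0.16 to 0.29. The ligands were Ccl1, Ccl8, Ccl11, Ccl12, Ccl19, Ccl22, Ccl24, Ccl25, Ccl27a, Ccl28, Cxcl11, Cxcl15, Cxcl17 and Xcl1, and the receptors Ccr1l1, Ccr3, Ccr4, Ccr6, Ccr8, Ccr9, Cx3cr1, Cxcr1, Cxcr3 and Cxcr5. Among them are the eosinophil attractants Ccl11 and Ccl24 with their receptor Ccr3. Cx3cr1, the fractalkine receptor, had weekly means between 0.01 and 0.02. The lowest adjusted p among these genes was 0.0623, for Xcl1 at 9 weeks with a mean of 0.13 ± 0.15. Values of 9 of the 52 members depended on the dye orientation, as did those of 11.5% of all features: Ccl25, Ccr8, Ccr9, Ccr10, Cxcl11, Cxcl12, Cxcl16, Cxcl17 and Cxcr5. For Cxcr5 at 6 weeks the mean was -0.65 with knockout RNA in Cy5 and 0.92 with it in Cy3. Of the 54 results in which a member was called at a time, 54 had one sign in both orientations and 40 had one sign on all 6 arrays.

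Many chemokine genes lie in clusters of neighbours, and within these the calls differed from gene to gene. In the reference order of chromosome 11, Ccl2, Ccl7, Ccl11, Ccl12, Ccl8 and Ccl1 follow each other with no other protein-coding gene between them, and Ccl2 and Ccl7 were the ones called at any time. Further along the same chromosome Ccl5, Ccl9, Ccl6, Ccl3 and Ccl4 adjoin, of which Ccl3 was called at no single time. Cxcl9 and Cxcl10 lie on chromosome 5 and were both called. On chromosome 9, Cxcr6, Xcr1, Ccr1, Ccr1l1, Ccr3 and Ccr2 adjoin, with Ccr1 and Ccr2 higher, Xcr1 lower and Cxcr6, Ccr1l1 and Ccr3 called at no single time. Probes for such close relatives may bind each other's transcripts, so values of single genes in these clusters are uncertain.

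Genes that act with chemokines but fall outside the symbol rule were counted in lists. Some genes were on several of the lists given here and below, and were counted in each. Examples are Bst2 and Irf8 (interferon response and dendritic cells), Cd14 (NF-kappaB and macrophages) and Itgam (adhesion and macrophages). The background for these lists and for the cell type markers is the share of all features called, which was 3.64%, 10.8%, 10.4% and 8.09% higher and 3.75%, 10.1%, 10.9% and 5.37% lower at 3, 6, 9 and 20 weeks. Of 9 measured genes for atypical receptors, platelet chemokines and chemerin, 1, 3, 2 and 2 were higher and 0, 0, 1 and 0 lower at 3, 6, 9 and 20 weeks. Rarres2, the precursor of the attractant chemerin, was higher at all 4 times, at 0.67 ± 0.51, 0.63 ± 0.31, 0.62 ± 0.37 and 0.82 ± 0.48. The platelet chemokine Pf4 was higher at 6, 9 and 20 weeks, at 0.37 ± 0.24, 0.38 ± 0.21 and 0.25 ± 0.30, whereas Ppbp, another platelet chemokine, was lower at 9 weeks, at -0.39 ± 0.20 (adjusted p = 0.000319). Of 30 genes of signalling below the receptors, 3, 10, 9 and 6 were higher and 0, 2, 0 and 0 lower. Gnb1, a G protein beta subunit, was higher at each time, with means from 0.38 to 0.56, and Rgs2, which limits G protein signalling, reached 0.86 ± 0.38 at 9 weeks. Of 22 genes of leukocyte adhesion, 4, 7, 8 and 7 were higher and 0 lower at any time, led by Vcam1, the endothelial ligand for leukocyte integrins, at 0.57 ± 0.54, 1.18 ± 0.36, 1.28 ± 0.47 and 1.23 ± 0.30.

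Genes of the pathways known to induce chemokines were counted likewise. Of 28 genes of NF-kappaB and its inducing cytokines, 7, 13, 9 and 4 were higher and 1, 1, 2 and 0 lower at the 4 times. Nfkbie, an inhibitor that NF-kappaB itself induces, was higher at each time with means from 0.50 to 0.74, and so was the NF-kappaB subunit Relb with means from 0.43 to 0.73. Of 23 genes of the interferon response, 5, 10, 11 and 7 were higher and 0, 1, 2 and 1 lower. Psmb8, an interferon-induced proteasome subunit, had means from 0.79 to 0.89 and Bst2, an interferon-induced antiviral protein, from 0.47 to 0.96, higher at each time. The list medians at 9 weeks were 0.13 for NF-kappaB and 0.19 for interferon genes, beside about 0.00 over all features.

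Markers of macrophages, stellate cells, bile duct cells and dendritic cells were more often called higher than lower at each time. Of 23 markers of monocytes and macrophages, 7, 15, 16 and 14 were higher and 0, 0, 1 and 1 lower at the 4 times, with list medians of 0.25, 0.45, 0.56 and 0.39. Lyz2, the lysozyme of myeloid cells, was at 1.02 ± 0.45, 1.96 ± 0.33, 2.45 ± 0.54 and 1.80 ± 0.33. The median of this list per array ran from 0.05 to 0.45 at 3 weeks, from 0.20 to 0.71 at 6 weeks, from 0.34 to 0.97 at 9 weeks and from 0.14 to 0.63 at 20 weeks. Replicate 2 of 9 weeks, the highest array for Ccr2, Ccl20, Ccl9, Ccl6 and Cxcl16 at that time, was also the highest for this list. Of 19 markers of stellate cells and myofibroblasts, 6, 16, 16 and 11 were higher and 0, 1, 1 and 1 lower, and of 17 markers of bile duct cells, 9, 11, 12 and 12 were higher and 0, 0, 1 and 0 lower. Col3a1, a fibrillar collagen, was at 2.29 ± 0.52 at 9 weeks, and Krt8, a keratin of bile duct cells and hepatocytes, at 1.78 ± 0.56. Of 17 dendritic cell markers 4, 9, 7 and 7 were higher and 0, 0, 0 and 1 lower. Members of the chemokine set were left out of the cell type lists, namely Ccr7 here and Xcl1 among natural killer cell markers. Of these, Ccr7 was lower at 9 weeks and Xcl1 passed no test. The part of these cell types in the chemokine values was not tested.

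Markers of the other white blood cells that chemokines attract were called in both directions. Of 15 neutrophil markers, 1, 2, 1 and 1 were higher and 1, 1, 1 and 0 lower, with a list median of -0.01 at 9 weeks, the time when Cxcl5 and Cxcr2 were lower. The neutrophil protein genes S100a8 and S100a9 averaged 0.37 ± 0.17 (adjusted p = 0.0324) and -0.53 ± 0.48 (0.0425) at 6 weeks, in opposite directions. Lcn2, on the same list but also made by injured hepatocytes, was at 3.38 ± 0.83 at 9 weeks. Of 18 T cell markers, 3, 3, 3 and 2 were higher and 0, 3, 3 and 2 lower; of 15 markers of B and plasma cells, 2, 1, 1 and 2 higher and 0, 2, 2 and 1 lower; and of 12 natural killer cell markers, 1, 2, 2 and 1 higher and 0, 0, 1 and 1 lower. Of 17 endothelial markers, 0, 5, 3 and 1 were higher and 0, 2, 1 and 2 lower, and of 17 hepatocyte markers, 2, 2, 2 and 1 were higher and 5, 2, 5 and 3 lower. For 8 erythroid markers the counts were 0 higher at any time and 1, 2, 2 and 0 lower, and for 12 exocrine pancreas genes 0 higher and 1, 0, 0 and 0 lower. The part of these markers in the chemokine values was not tested.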

How the data were processed

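The authors deposited 1 log ratio per feature and array, treated as log2 although the labels do not state the base; values reached from -8.45 to 7.53. Steps before deposit (background, normalization, filters): not given in the sources used here. Features were named through the platform annotation after reversing both axes of the 215 by 105 grid and reading it by column. In that layout 48 accessions spotted at least 10 times gave a mean of the median correlations between copies of 0.664, against 0.00533 for a direct join, and every gene name rests on it. Of 22575 features, 18218 named 1 gene, 16 several and 4341 none. All 52 members were found in the reference gene table and 0 symbols changed.

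The sign was turned where wild type RNA was in Cy5, each array was centred on its median and features were averaged per symbol. Before turning, arrays of one week and opposite dye orientation had a median r of -0.29, -0.47, -0.51 and -0.36 at the 4 times. All 24 arrays entered one limma fit (version 3.58.1, R 4.3.3, lmFit and eBayes) with 1 mean per week and 1 dye term. Times were compared by the moderated F test and contrasts against 3 weeks, and p-values were adjusted by Benjamini-Hochberg over 20861 items (threshold 0.05). The fit was tested on simulated data. The number of arrays limits the precision. Times came from array titles, since every source name reads 3 weeks. Array numbers were treated as names only. Over 36 same-numbered pairs of different weeks the median correlation of deviations was 0.0155, with a range from -0.50 to 0.47. For pairs with different numbers the median was 0.0088. Of 24 arrays, 9 correlated best with their own number. No chance level was computed for this count, so whether numbers pair the arrays was not settled.

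Members past any test were named with values, those with a mean of at least 0.5 at a called week by array values, and at most 4 genes per list. Members, lists and tests were chosen with earlier results of these data known, and the pair of Ccl21c with Ccr7 was added after values were seen. Alternatives covered centring, normalization, the dye term, single features, array weights, the repeated pair, the replicate block, single arrays, weeks fitted alone and a one-sign rule.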

Additional observations from a re-analysis of the deposited data

Results flagged for a closer look

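Single arrays stood apart in 4 of 112 groups of 6 arrays (28 members at 4 times), where chance flags about 5%. The gap of the extreme array to its nearest neighbour, as a fraction of the range of the group, was 0.743 for Ccl3 at 20 weeks, where replicate 3 was at -0.28 and the others at 0.09 to 0.21. It was 0.636 for Ccr2 at 9 weeks, where replicate 2 was at 1.57 and the others at 0.50 to 0.89. For Ccr7 at 6 weeks it was 0.753, with replicate 3 at -0.33 and the others at -0.14 to -0.07, and for Cxcl2 at 3 weeks it was 0.694, with replicate 6 at 0.20 and the others at 0.02 to 0.07.

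The knockout effect differed between times for 6 genes, by a test of the difference itself. Compared with 3 weeks it was larger at 6 weeks by 0.78 for Ccl6 and by 0.31 for Ccl7. At 9 weeks it was larger by 1.45 for Ccl20, by 0.82 for Cxcl14, by 0.69 for Ccr2, by 0.63 for Ccl6, by 0.52 for Ccl21c and by 0.25 for Ccl7. At 20 weeks it was larger by 0.54 for Ccl21c. Of all features, 0.695%, 1.61% and 3.02% had a higher ratio at 6, 9 and 20 weeks than at 3 weeks. Lower ratios were found in 0.604%, 2.06% and 1.54%. Cxcl14 did not pass the F test (adjusted p = 0.0807), and 14 of 33 alternatives ended its difference. With the most alike pair of each week averaged, only Ccl20, Ccl21c and Ccr2 kept a difference, each at 9 weeks.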

How the results depend on the processing

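Every called value of a named gene kept its direction under the alternatives run; the direction of values that were not called was not counted. Without replicates 1 and 2 of 3 weeks, 0 members were called at 3 weeks, 1 differed at 6 against 3 weeks and 2 passed the F test. With the closest pair averaged, 0 were lower at 20 weeks, 0 differed at 6 and 0 at 20 weeks against 3 weeks, 3 differed at 9 weeks and 0 passed the F test. The replicate block gave 4 lower at 6 weeks and 2 lower at 20 weeks. It also gave 1 with a lower ratio at 9 against 3 weeks and 3 differing at 20 weeks. Whether numbers pair the arrays was not settled. Without the dye term 1 was lower at 6 weeks. A week fitted alone gave 2 lower at 9 weeks and 2 at 20 weeks. Calls that ended in that fit included those of Ccl9 and Cxcl5 at 9 weeks (adjusted p = 0.066 and 0.0609). They also included those of Ccl6 and Cx3cl1 at 20 weeks (0.0516 and 0.07). Requiring one sign on all 6 arrays left 11 called at 6 weeks, 1 of them lower, and 0 lower at 20 weeks. At 20 against 3 weeks, 6 members differed after quantile normalization, 6 after scaling to a common spread and 4 with array weights. Leaving out single arrays gave 3 to 3 called at 3 weeks (0 lower), 13 to 18 at 6 weeks (11 to 16 higher, 1 to 3 lower), 14 to 19 at 9 weeks (12 to 15 higher, 2 to 5 lower) and 11 to 16 at 20 weeks (11 to 15 higher, 0 to 2 lower). In the same fits 2 to 4 differed from 3 weeks at 6 weeks, 3 to 7 at 9 weeks and 1 to 4 at 20 weeks. At 9 weeks the ratio was higher for 3 to 6 and lower for 0 to 1. In the mean 27 to 29 were called (21 to 22 higher, 6 to 7 lower), and 2 to 6 passed the F test. The cause of these shifts was not tested. Signal over background was not analysed here, which limits what can be said of dim features.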
